A study of Homo sapiens with 2 samples.

Results

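The BCL2 family genes control the mitochondrial route to apoptosis. They were chosen here by name, and their probes were those that the array annotation places relative to the start of one of 10 genes: the survival genes BCL2L1, BCL2, MCL1 and BCL2A1 and the death genes BAX, BAK1, BMF, BAD, BID and BCL2L11. These 10 genes, of 17280 gene symbols named on the arrays, were covered by 324 of 474411 genomic probes. Survival proteins such as Bcl-xL, the product of the long BCL2L1 transcript, hold the pore formers BAX and BAK1 in check at the outer mitochondrial membrane. The BH3-only proteins, here encoded by BMF, BAD, BID and BCL2L11, sense damage or loss of growth signals and relieve that block, after which cytochrome c leaks out and caspases are activated. Bcl-xL is known to sustain maturing erythroid cells and platelets, and GATA1 is a zinc finger transcription factor of the same lineages that binds GATA sequences.

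Chromatin immunoprecipitation followed by promoter array hybridization (ChIP-on-chip) was performed in the megakaryocytic leukemia line Meg-01, an established human line that was left untreated. Chromatin was sheared to fragments of 500-1000 bp, and each hybridization paired DNA pulled down with the C-20 antibody to the GATA1 C-terminus (IP, Cy5) with DNA pulled down with normal goat IgG (IgG, Cy3), both amplified through ligated linkers. The 2 hybridizations, chIP1 and chIP2, used different probes that together made up 1 promoter set, so each probe was measured a single time, with no replicate and no dye swap. The values therefore carry no p-value, and errors given for a window are the scanner software's own error of the spots, which does not include the spread between immunoprecipitations. No RNA was measured on these arrays, so the identity of the cells could not be checked against marker transcripts here. Of the members, MCL1, BAK1 and BCL2L11 lay on chIP1 and the others on chIP2.

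All values are log2(IP/IgG) with the median of each array at 0, so that 0 is the typical probe and 1 a 2-fold excess of GATA1 IP over IgG. A window was the mean of 3 neighboring probes and was counted for every gene to which at least 1 of them was assigned. It was called enriched at 2-fold or more toward the IP and depleted at 2-fold or more toward the IgG. The SD of the probe values was 0.97 on both arrays, far above the 0.05 (chIP1) and 0.04 (chIP2) of 1 control probe over its 480 spots. All 324 member probes passed the filters, and 1 of them, at MCL1, was not well above background in the IgG channel. Adjacent probes within 250 bp of each other had r = 0.61 over 340017 pairs on the arrays and r = 0.48 over 227 pairs of member probes; such probes share sheared fragments, so neighboring values were not independent.

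The DNA just before the start of 4 members is shown because their start regions had the highest (BCL2L11) and the lowest (BCL2A1) mean signal, because BMF had the highest window of the members, and because BCL2L1 is the member whose upstream region the study examined for GATA1 sites. Whether the BCL2L1 sequences shown cover the region that the study examined was not determined. The sequences are from RefSeq (GRCh38.p14), run 5′ to 3′ on the strand of the gene over the 250 bases before a start, and have GATA, or TATC where the motif is on the opposite strand, in capitals. The array coordinates given further on belong to a build not given in the sources used here and must not be set against these positions, and which RefSeq start corresponds to which start of the array annotation was not determined. RefSeq gave 16 starts for 9 of the members, with no entry for MCL1.
BCL2L1, start A, chr20:31722869-31723118, minus strand: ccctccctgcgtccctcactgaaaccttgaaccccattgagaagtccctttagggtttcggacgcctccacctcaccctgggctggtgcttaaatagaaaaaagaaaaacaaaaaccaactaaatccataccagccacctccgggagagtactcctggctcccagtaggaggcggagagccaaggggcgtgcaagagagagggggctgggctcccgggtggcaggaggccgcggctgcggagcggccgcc
BCL2L1, start B, chr20:31723964-31724213, minus strand: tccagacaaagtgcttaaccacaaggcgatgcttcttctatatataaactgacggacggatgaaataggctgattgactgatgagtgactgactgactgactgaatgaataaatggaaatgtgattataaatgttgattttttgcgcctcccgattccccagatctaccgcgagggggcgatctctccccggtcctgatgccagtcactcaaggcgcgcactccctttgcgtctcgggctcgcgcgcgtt
BCL2A1, chr15:79971197-79971446, minus strand: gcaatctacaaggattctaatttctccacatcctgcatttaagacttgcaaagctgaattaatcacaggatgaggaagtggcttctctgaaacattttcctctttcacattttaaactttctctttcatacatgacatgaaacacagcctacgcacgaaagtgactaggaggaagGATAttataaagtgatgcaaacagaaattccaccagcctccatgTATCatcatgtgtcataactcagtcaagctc
BMF, start A, chr15:40106967-40107216, minus strand: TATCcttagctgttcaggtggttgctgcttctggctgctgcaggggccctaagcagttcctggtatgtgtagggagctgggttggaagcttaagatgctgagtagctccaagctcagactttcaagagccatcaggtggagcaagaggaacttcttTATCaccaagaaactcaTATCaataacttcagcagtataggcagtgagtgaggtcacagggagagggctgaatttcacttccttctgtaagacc
BMF, start B, chr15:40108880-40109129, minus strand: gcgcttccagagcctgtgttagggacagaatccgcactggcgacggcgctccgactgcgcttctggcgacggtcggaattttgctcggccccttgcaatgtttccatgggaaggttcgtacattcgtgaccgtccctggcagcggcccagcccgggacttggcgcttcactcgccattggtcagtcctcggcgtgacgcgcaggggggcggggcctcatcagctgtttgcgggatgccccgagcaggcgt
BCL2L11, chr2:111120664-111120913, plus strand: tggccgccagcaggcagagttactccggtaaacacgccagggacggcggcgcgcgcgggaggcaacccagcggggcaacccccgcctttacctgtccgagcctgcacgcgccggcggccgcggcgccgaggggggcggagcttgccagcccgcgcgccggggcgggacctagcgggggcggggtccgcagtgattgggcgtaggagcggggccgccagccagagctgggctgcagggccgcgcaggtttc

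The extended GATA motif (GATA with A or T before it and A or G after it, searched on both strands) was found in 1 of the 16 member promoters, that before start A of BMF, where its first base lay at -95. The sequence before start B of BMF held neither the motif nor the core. Over all 35116 RefSeq promoters of that length, 22.3% held the motif. The 4-base core GATA was found on either strand in promoters of 4 members (BMF, BCL2A1, BAX and BID) and in 45.6% of all promoters. Neither BCL2L1 sequence contained the core, and neither did the sequence of BCL2L11, whose GC content was 76.8% against 38.8% in BCL2A1 and a median of 58.0% over all promoters. A match describes letters in this window and is not a binding site, and the 3-probe windows below extend well beyond it.

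Over the family, GATA1 IP signal of at least 2-fold was found at 5 of the 10 genes: MCL1 among the survival genes and BAX, BMF, BID and BCL2L11 among the death genes. On the arrays as a whole, 57.1% of the 17058 genes with a window had an enriched window, so the share of members was near the background. Among genes with 13 to 51 windows, the range of the members, that background was 60.4%. Depleted windows were found at 2 of 10 members, BAK1 and BCL2L11, against 52.9% of all genes and 57.1% of genes with that number of windows. BMF was the only member in which all 3 probes of the highest window were at least 2-fold, which held for 21.4% of all genes. Counted by window, 11 of 275 member windows were enriched (4.0%) and 3 were depleted (1.09%), against 7.62% and 9.65% of all windows, so the member loci held fewer extreme windows in either direction than the arrays did. The median highest window of the members was 1.05 and that of all genes was 1.09, with quartiles of 0.76 and 1.49.

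**Figure D1:**
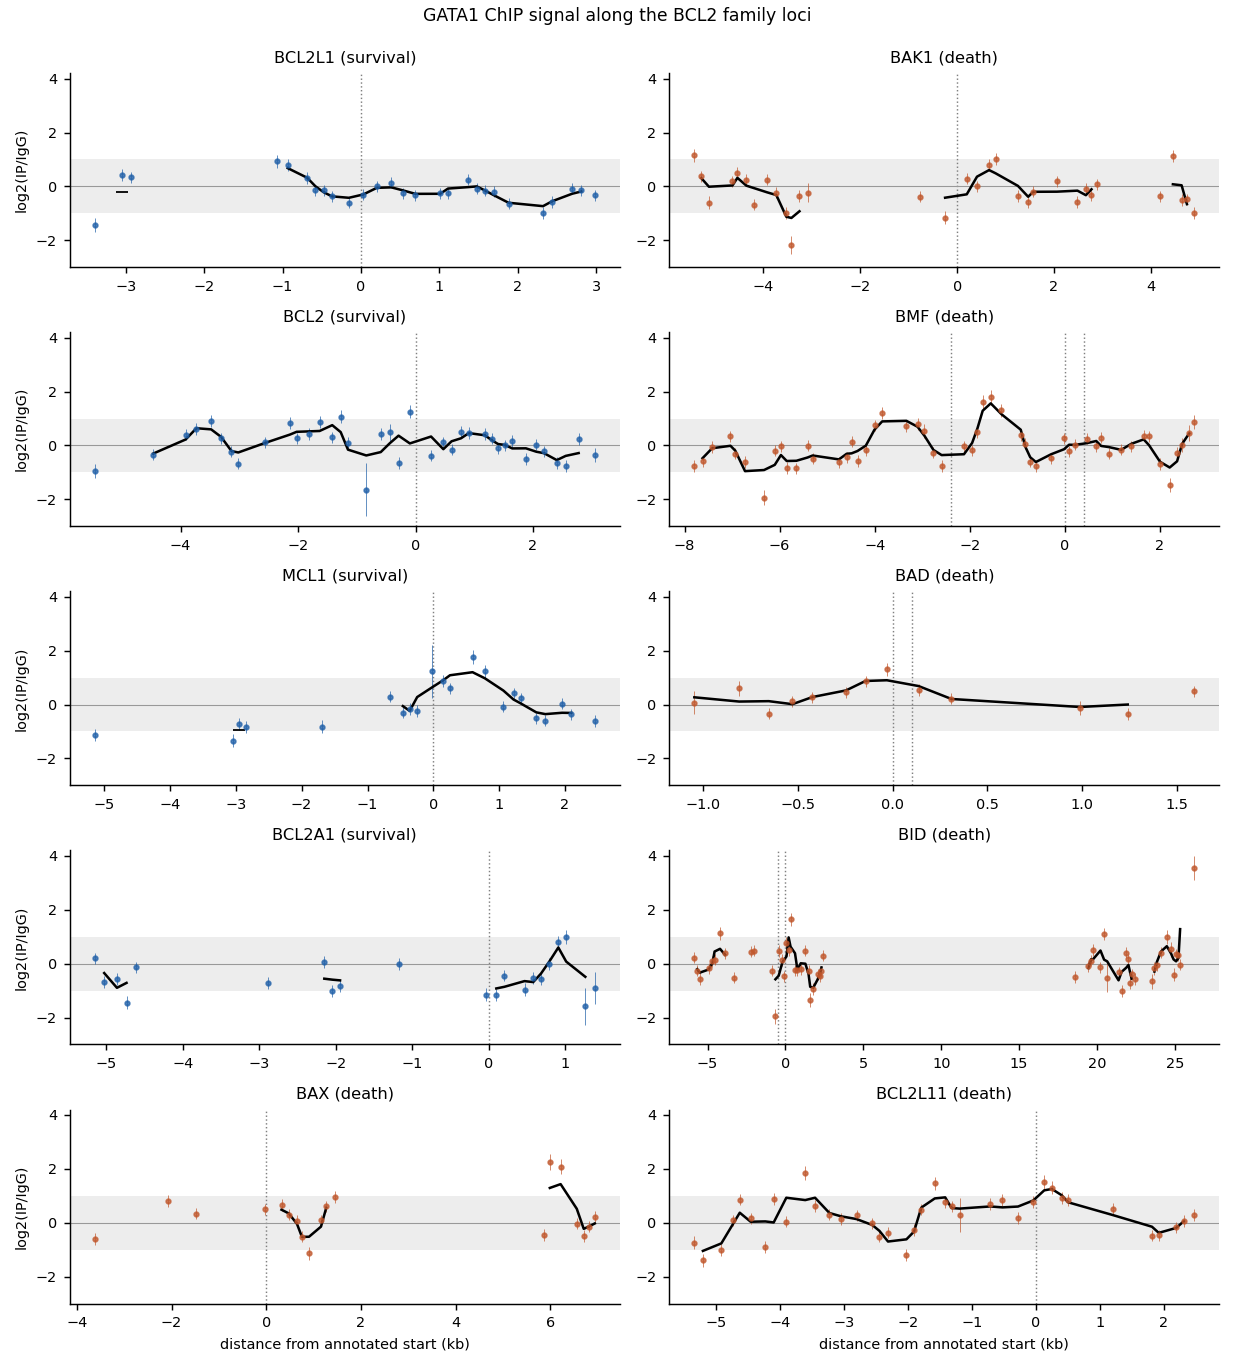
Log2(IP/IgG) of every probe (points, with the scanner error) and the mean of 3 neighboring probes (black line) against distance from the annotated start in kb, for the survival genes (blue) and the death genes (orange). Dotted lines mark each start that the array annotation gives and the gray band spans 2-fold in either direction. The black line leaves the band upward at MCL1, BAX, BMF, BID and BCL2L11 and downward at BAK1 and BCL2L11.

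Among the survival genes, BCL2L1 had no window past 2-fold in either direction. This gene, which encodes Bcl-xL, had 27 probes on chromosome 20 from -3394 to 2981 bp of its start, and none of them reached 2-fold toward the IP. Of the 11 probes within 1000 bp of the start, 4 were above 0 and 7 below, and they averaged -0.08 ± 0.38 (SD over probes, n = 11), at the 25.02 percentile of genes on its array. The 3 values nearest the start were -0.60 at -154, -0.31 at 30 and 0.01 at 201, so the IP was level with the IgG or below it there, relative to the array median. The paper, by contrast, reports that GATA1 ChIP with PCR in Meg-01 recovered a Bcl-x promoter region with putative GATA1 sites. Its reporter assay in other cells showed activation of that promoter by GATA1. The paper also reports lower Bcl-xL transcript and protein after GATA1 knockdown. It gives the primer positions of the promoter region relative to a start, which was not set against the start used by the array. Which probes here lie in that region was therefore not determined.

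The highest BCL2L1 window lay in the promoter at -934 (chr20:29774981-29775415), where the probes at -686, -934 and -1076 had 0.31, 0.80 and 0.93. Their mean was 0.68 ± 0.13 (scanner error), a 1.6-fold excess at the 21.9 percentile of the highest windows on the array. The signal thus rose away from the start that the array gives, up to the probe at -1076. RefSeq starts A and B of this gene were not placed on the array coordinates, so the direction holds for the array's start only. Between -1076 and -2937 lay a stretch of 1809 bases that carried no BCL2L1 probe. Signal inside that stretch was not measured. Beyond it, the probes at -2937 and -3043 had 0.34 and 0.42 and the probe at -3394 had -1.43, the lowest value of the gene.

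BCL2, the founding survival gene of the family, was covered by 38 probes on chromosome 18. Its highest window, at -1418 in the promoter (chr18:59138845-59139248), had 1.07, 0.31 and 0.88 and a mean of 0.75 ± 0.13, a 1.69-fold excess at the 27.0 percentile. Near the start the probes scattered in both directions, with 0.04 ± 0.80 (SD over probes, n = 10), from -1.64 at -838 to 1.26 at -96. The probe at -96 was the only probe of these 10 past 2-fold toward the IP, and its neighbors at -289 and 265 had -0.65 and -0.38.

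MCL1, a short-lived survival protein, was the only survival gene with an enriched window. The highest lay inside the gene, centered at 595 bp from the start (chr1:147364405-147364979), where the probes at 782, 595 and 252 had 1.23, 1.77 and 0.60. The mean was 1.20 ± 0.14 (2.30-fold), at the 55.5 percentile of its array, so a window of this height was common. All 5 probes from -25 to 782 were above 0, whereas the 3 probes from -246 to -463 had -0.24, -0.16 and -0.30. The probe at -25, with 1.24, was the one not well above background in the IgG channel, and its scanner error was 0.99. Far upstream the direction turned, with -0.96 ± 0.13 in the window at -2951.

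BCL2A1, a survival gene of hematopoietic cells, had the lowest mean near the start among the 10 members. Probes within 1000 bp of the start averaged -0.50 ± 0.66 (SD over probes, n = 8), at the 8.21 percentile of its array, with 7 of the 8 below 0. The window over the start (chr15:78050466-78050759) had -0.45, -1.17 and -1.15 and a mean of -0.92 ± 0.13, that is 1.89-fold toward the IgG and just short of a depleted call. Its highest window, at 909 inside the gene, reached 0.60 ± 0.14. Of all 21 probes of the gene, 17 were below 0.

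The multidomain death genes BAX and BAK1 encode the proteins that perforate the outer mitochondrial membrane. At BAX the enrichment lay inside the gene and far from the start. The window at 6216 (chr19:54155894-54156507) averaged 1.43 ± 0.15 (2.70-fold, 73.6 percentile), and rested on 2 probes with 2.24 at 5988 and 2.08 at 6216, while the flanking probes at 5854 and 6557 had -0.46 and -0.03. In IP and IgG intensity the 2 high probes read 594 against 125 and 1694 against 398. Near the start BAX averaged -0.02 ± 0.68 (SD over probes, n = 6), and no probe lay between 1452 and 5854.

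BAK1 had 32 probes on chromosome 6 and its highest window, at 660 inside the gene, reached only 0.61 ± 0.12 (14.3 percentile). Its lowest window lay in the promoter at -3422 (chr6:33659193-33659509) and was depleted, at -1.17 ± 0.15, with -0.36, -2.17 and -0.98 at its probes. That mean was carried by the middle probe, where the IP read 105 and the IgG 473. The array also assigned 6 probes on chromosome 20 to the symbol BAK1. They ranged from -2.06 to 1.57, held 1 window with 0.06, and were kept apart from the chromosome 6 locus in every count.

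**Figure D2:**
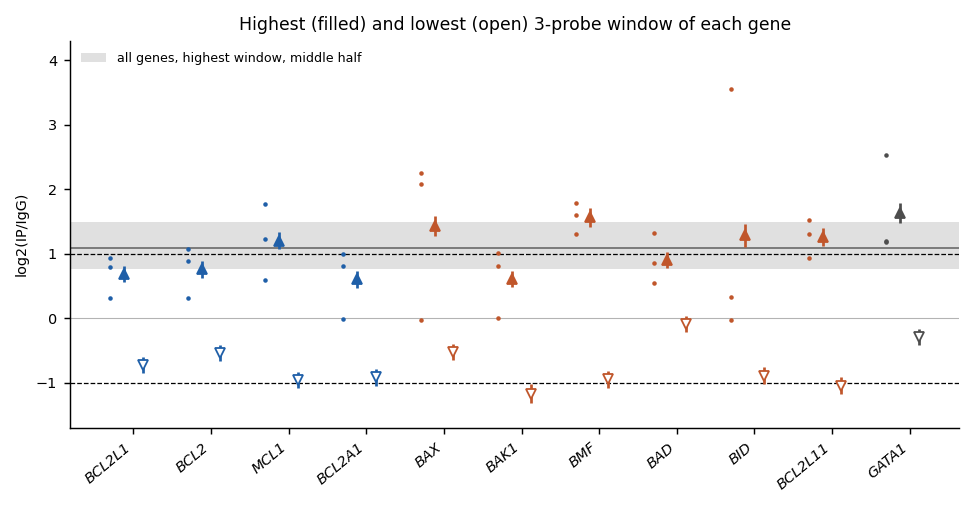
Highest (filled triangles) and lowest (open triangles) 3-probe window of each member and of GATA1, as log2(IP/IgG) with the scanner error; the small points are the 3 probes of the highest window, dashed lines mark 2-fold, and the gray band and line give the quartiles and median of the highest window over all genes. BMF stands highest among the members at 1.56 and BCL2A1 lowest at 0.60, and the BID window is the mean of 1 probe at 3.56 and 2 probes near 0.

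Among the BH3-only genes, BMF had the highest window of the 10 members and the only one of theirs with all 3 probes past 2-fold. It also had the most windows of the members, 51, from which the highest could come. BMF encodes a protein that senses detachment from the matrix and disturbance of the actin cytoskeleton. The probes at -1334, -1560 and -1729 (chr15:38187241-38187684) had 1.31, 1.78 and 1.6, which gave 1.56 ± 0.15 (2.95-fold) at the 79.7 percentile of its array. In intensity the IP read 1921, 1502 and 938 against 774, 434 and 308 in the IgG, well above the background in both channels. The window was flanked by 0.39 at -929 and 0.48 at -1840.

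The array annotation gives BMF 3 starts, which its distances place at about 38188370, 38185930 and 38185580, with the gene running toward lower coordinates. The distances above refer to the middle of these, whereas the same 3 probes lie 1102, 876 and 707 bp downstream of the start of NM_001003940, the first in the direction of transcription. Probes within 1000 bp of that first start averaged 0.47 ± 0.81 (SD over probes, n = 10), against -0.09 ± 0.38 (n = 12) and -0.11 ± 0.34 (n = 10) at the other two. These sets overlap in part. A further rise, below 2-fold as a 3-probe mean, lay upstream of the first start, where the probes at -1568, -1407, -898, -663 and -518 from it had 0.74, 1.20, 0.73, 0.81 and 0.54.

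BCL2L11, which encodes the BH3-only protein BIM, had the highest mean near the start among the 10 members. All 8 probes within 1000 bp were above 0, from 0.17 to 1.52, and averaged 0.88 ± 0.40 (SD over probes, n = 8), at the 93.5 percentile of its array. The highest window was centered at 252 (chr2:111597651-111597969), just inside the gene, with 1.52, 1.30 and 0.93 and a mean of 1.25 ± 0.14 (2.38-fold, 59.1 percentile). The elevation was broad rather than tall. In a stretch chosen after its values were seen, all 14 probes from -1791 to 1206 were above 0, with a mean of 0.80 ± 0.41 (SD over probes). Separate single probes past 2-fold lay upstream at -1580 (1.46) and -3608 (1.84), and the window at -5210 was depleted at -1.05 ± 0.14. Of the 38 probes, 28 were also assigned to FLJ44006, whose annotated start is divergent, so the upstream values cannot be assigned to BCL2L11 alone.

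BAD, which links growth factor signaling to apoptosis, had a modest rise over its start. The window at -30 (chr11:63808581-63808905) had 0.54, 1.31 and 0.86 and a mean of 0.90 ± 0.13 (1.87-fold, 37.5 percentile), below the 2-fold call. Near the start 8 of 10 probes were above 0, with 0.39 ± 0.48 (SD over probes, n = 10). The signal fell to 0.21 at 228 and -0.13 at 906. GPR137 shares 8 of the 13 probes from the divergent side.

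BID, which caspase-8 cleaves to link death receptors to mitochondria, was called enriched through a single spot. In its highest window, at 25332 inside the gene (chr22:16605055-16606129), the probe at 26249 had 3.56 and the other two had -0.03 and 0.32, for a mean of 1.28 ± 0.18. That spot read 335 in the IP and 28.4 in the IgG. The array annotation also places these probes 2411, 1494 and 1388 bp inside another BID transcript, counted from its start. Near the starts that the array gives the symbol BID, the 11 probes within 1000 bp averaged 0.01 ± 0.90 (SD over probes), from -1.96 at -167 to 1.64 at 326, with no common direction. Their distances do not all refer to the same start.

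**Figure D3:**
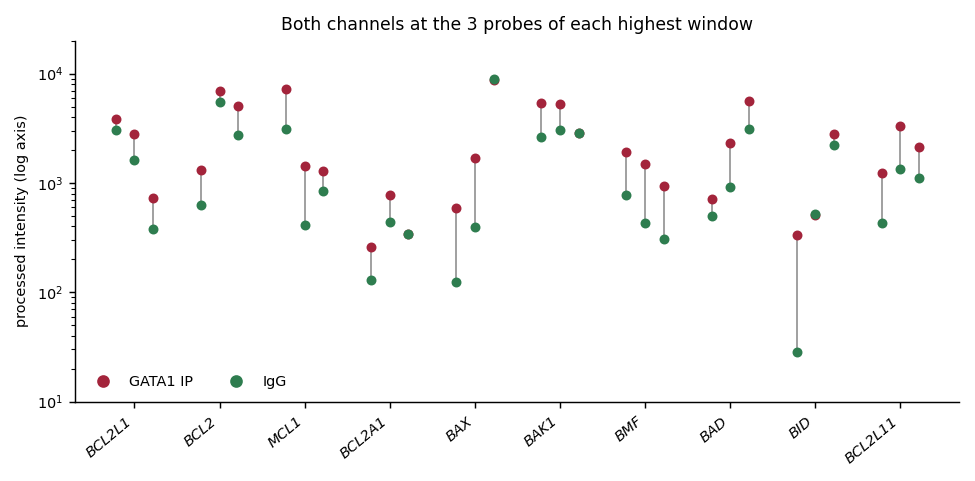
Processed intensity in the GATA1 IP (red) and IgG (green) channels, on a log axis, at the 3 probes of each member's highest window, in order along the chromosome. At BCL2L1, BCL2, MCL1, BMF, BAD and BCL2L11 each of the 3 probes has IP above IgG. At BID the gap comes mostly from 1 probe with 335 against 28.4, and at BAX from 2 of the 3.

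Survival and death genes were then set against each other. The median highest window was 0.72 in the 4 survival genes and 1.27 in the 6 death genes, a difference of -0.55. Enriched windows were found in 1 of 4 and 4 of 6, against 57.1% of all genes and 60.4% of genes with 13 to 51 windows. The ranges overlapped, from 0.60 to 1.20 in the survival genes and from 0.61 to 1.56 in the death genes. The death genes also had more windows from which the highest could come, with a median of 31.0 against 19.5, and 2 of their 4 enriched genes, BAX and BID, owed the call to windows more than 2000 bp inside the gene, as counted from the start given for the symbol. Restricted to windows within 2000 bp of the start, 1 of 4 survival genes and 2 of 6 death genes were enriched, against 41.2% of all genes, and the difference of medians was -0.22.

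The difference at the start depended on how it was taken. The mean over probes within 1000 bp had a median of -0.02 in the survival genes and 0.05 in the death genes, a difference of -0.07, while all genes had a median of 0.22 with quartiles of -0.07 and 0.49. The same difference was -0.32 within 500 bp, and over single probes pooled within 1000 bp the medians were -0.15 and 0.25, a difference of -0.39. Within either group the gene means spread more widely than any of these differences, from -0.50 (BCL2A1) to 0.59 (MCL1) among survival genes and from -0.02 (BAX) to 0.88 (BCL2L11) among death genes. Of the members, 3 lay above the median of all genes near the start: BCL2L11, MCL1 and BAD. Of the 97 member probes in this region, 9 were at least 2-fold up (9.28%) and 6 down (6.19%), against 13.6% and 8.07% of all such probes.

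**Figure D4:**
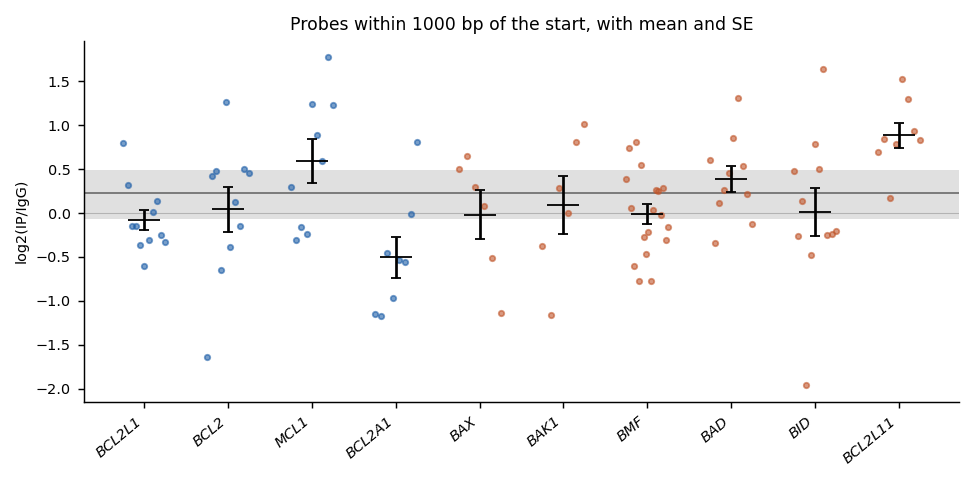
Log2(IP/IgG) of each probe within 1000 bp of the start (points, ordered by distance), with the mean and SE over the probes of a gene (black bars), for survival genes (blue) and death genes (orange). The SE treats the probes as independent, which neighboring probes were not, and does not include the spread between immunoprecipitations. The gray band and line give the quartiles and median of this mean over all genes. BCL2L11 at 0.88 and MCL1 at 0.59 lie above the band, and BCL2A1 at -0.50 and BCL2L1 at -0.08 lie below it.

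By distance, the share of member probes past 2-fold toward the IP was highest between -2000 and -1000 bp. There 6 of 28 probes were at least 2-fold up (21.4%) and none was down, against 10.99% up and 15.8% down over all genes. BMF supplied 4 of the 6, counted from 2 of its starts, and BCL2 and BCL2L11 supplied 1 each. Neighboring probes of a single locus thus made up most of the count. The BMF probes at -1334, -1560 and -1729 lie 1102, 876 and 707 bp downstream of the start of NM_001003940. Counted from that nearer start, they would not fall in this upstream range, so the high share depended on the start used for BMF. Between -500 and 0 bp, where all genes had a median of 0.27, the 30 member probes had a median of -0.15.

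The remaining genes of the family spanned a wider range than the members. All 10 had a window, 6 were enriched and 4 depleted, against 57.1% and 52.9% of all genes. The median highest window was 1.17, against 1.09 over all genes. The highest were BCL2L10 at 2.41, BCL2L14 at 2.09 and BOK, a relative of BAX and BAK1, at 2.00. The lowest were HRK at 0.22, BBC3, which encodes the p53 target PUMA, at 0.50 and BCL2L12 at 0.59. BCL2L10 and BCL2L14 had these windows at -2873 and -6485 bp, and their probes within 1000 bp of the start averaged -0.15 and -0.09.

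Of the 17 genes that act downstream or beside the family at the mitochondrion, 9 were enriched and 8 depleted, against 57.1% and 52.9% of all genes. Their median highest window was 1.01. AIFM1 (PDCD8 on the array), an oxidoreductase released from mitochondria, was highest at 2.38, followed by XIAP (BIRC4), a caspase inhibitor, at 1.5 and CYCS, which encodes cytochrome c, at 1.32. CASP9, the initiator caspase of the apoptosome, was lowest at 0.30, with ENDOG at 0.32 and HTRA2 at 0.57. Near the start these genes had a median of 0.39, against 0.22 over all genes. There 35 of their 152 probes were at least 2-fold up (23.0%) and 2 down (1.32%), against 13.6% and 8.07% of all such probes. Among the members 9 of 97 were up.

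The GATA1 gene, on the same array as most members, is given for scale and not as a positive control. The paper amplified a separate region of GATA1 to check the specificity of its ChIP. Its highest window, centered 404 bp inside the gene (chrX:48401427-48401756), had a mean of 1.63 ± 0.15 (3.1-fold, 82.4 percentile) with 1.19, 1.18 and 2.52 at its probes. At GATA1, 10 of 24 windows were enriched, against 3 of 51 at BMF, 0 of 23 at BCL2L1 and 7.62% of all windows.

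The calls at MCL1, BMF and BCL2L11 held at the 2-fold threshold in each of the ways tried, not all of which could lower them. Under 8 other ways of computing the highest window, these 3 genes were above 2-fold in all 8, with ranges of 1.02 to 1.77 for MCL1, 1.11 to 1.78 for BMF and 1.05 to 1.84 for BCL2L11. The series values repeat the same ratio, and the filters on dim probes barely changed a value. A highest single probe cannot lie below a mean that includes it. Only loess, normexp, 5-probe windows and removal of the distance trend could therefore lower a call. BCL2L1 was above 2-fold in 0 of 8, from 0.35 to 0.93. BAX fell to 0.86 with another background correction and to 0.73 with 5-probe windows, and BID fell to 0.76 with 5-probe windows.

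**Figure D5:**
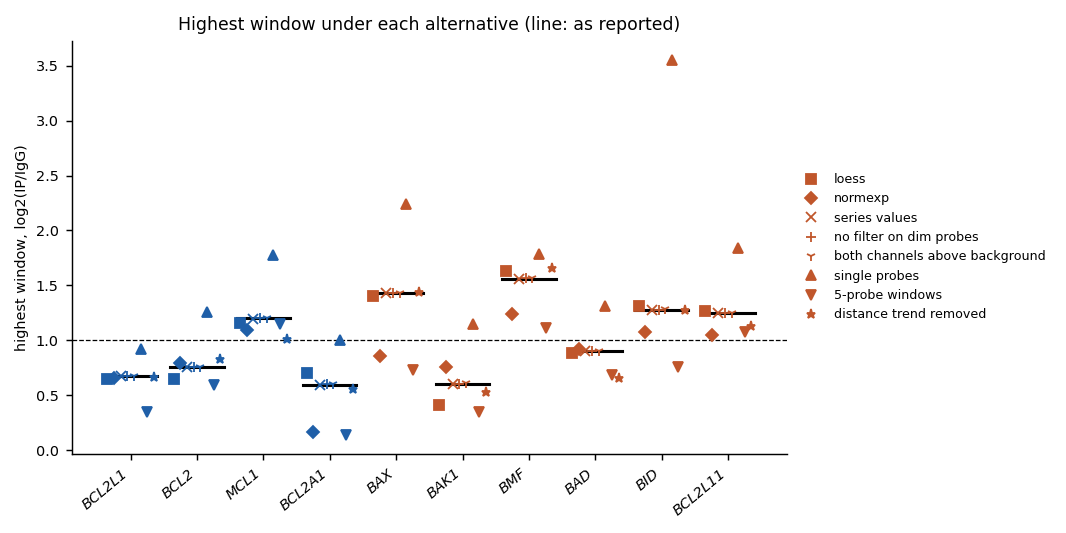
Highest window of each member as log2(IP/IgG) as reported (black line) and under 8 alternatives (symbols), with 2-fold dashed. All symbols of MCL1, BMF and BCL2L11 are above 2-fold and all of BCL2L1 are below it.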

How the data were processed

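The deposited scanner files, per the file headers from Agilent Feature Extraction 9.5.3.1, held processed intensity values that the authors' software had detrended and dye-normalized, scanner flags (other), and a log10 ratio of red over green. The deposited value tables repeated that log10 ratio exactly. The study's lowess and median normalization, Whitehead error model and peak calls were not used here. Probe positions and distances to starts came from the array annotation, with a build not given in the sources used here.

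Here, log2(rProcessedSignal/gProcessedSignal) was centered on each array's median, without loess, after removal of control spots, non-uniform outliers and probes not well above background in either channel (kept 237004 of 237210 on chIP1 and 236864 of 237201 on chIP2). Windows of 3 probes required neighbors within 1000 bp, and genes were keyed by symbol and chromosome. The number of arrays limits the precision. No test was possible with 1 hybridization per probe. Named genes were the 10 members, the 3 highest and 3 lowest of each of 2 lists, GATA1 and genes sharing member probes. The members and lists were chosen with earlier results of these data known. Alternatives were loess, normexp (limma 3.58.1, R 4.3.3), the series values, other filters, window sizes, thresholds and distances. The window code (Python 3.11.15, pandas 2.3.3) was tested on simulated data and found 200 of 200 genes with planted windows. These windows were planted well above the threshold over little noise, so this checks the code and not detection in these data.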

Additional observations from a re-analysis of the deposited data

How the results depend on the processing

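No paired analysis was possible because each probe was hybridized once. The members with an enriched window numbered 5, and the count changed to 9 with single probes (86.1% of all genes), 3 with 5-probe windows (34.1%), 3 with windows within 2000 bp of the start (41.2%), 10 at a 1.5-fold threshold (85.0%) and 0 at 3-fold (20.6%). With normexp it was 4 (33.1%). The members with a depleted window numbered 2, and changed to 0 with normexp (23.9% of all genes), 9 with single probes (81.1%), 0 with 5-probe windows (33.5%), 1 with the distance trend removed (49.5%), 0 within 2000 bp (29.8%), 1 without shared probes (51.4%), 7 at 1.5-fold (78.4%) and 0 at 3-fold (22.3%). The cause of single changes was not tested. The survival minus death difference of the median highest window stayed negative in the 10 alternatives run, from -0.68 (single probes) to -0.22 (within 2000 bp). The difference near the start was -0.32 with 500 bp and between -0.14 and -0.04 otherwise, where -0.14 counted each probe from the nearest of all starts, an alternative chosen after seeing the data. Of 80 single-gene values, 73 kept their side of 2-fold, but this counts the series values and the filters on dim probes, which barely change a value. The single hybridization per probe limits every value.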
